A study of Mus musculus with 24 samples.

Results

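The genes described here encode the T cell receptor signaling complex and its closest partners: the CD3 chains (Cd3e, Cd3d, Cd3g and Cd247), the coreceptor Cd4, the kinases Lck and Zap70, and the costimulatory molecules Cd28, Icos and Cd40lg. They were chosen by name, as the 10 gene rows whose Ensembl identifier carries one of these symbols in GENCODE M21, out of 55401 gene rows in the count table. The study tested IL-27 gene therapy and cabozantinib (cabo), a multi-kinase inhibitor, against tumors of TC2Ras cells, a mouse prostate adenocarcinoma line made from TRAMP-C2 cells with an activated Ras and an androgen receptor transgene. RNA was sequenced from 24 tumors of male C57/BL6 mice that were 8 to 10 weeks old, 4 grown subcutaneously (SC) and 20 grown in the tibia from TC2Ras-Luc cells, which also carry luciferase. Every mouse, control or treated, received a plasmid in muscle by sonoporation (ultrasound with microbubbles), either one that expresses IL-27 with a targeting peptide and a secreted Lucia reporter or an empty vector with the reporter. So a plasmid in muscle and ultrasound were shared by all groups, and the plasmid was put into muscle and not into the tumor. The labels, however, name the control vector of the intratibial mice pORF0, which resembles the name of an empty vector without the reporter that the methods give for cell culture, so whether every control carried the reporter is not settled here.

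The SC tumors, harvested 1 week after implantation, were SC control (n = 2) and SC IL-27 (n = 2). The intratibial tumors of day 14 (D14) came from control mice and from mice given IL-27, cabo or both (IL-27+cabo), with 3 mice each, and cabo or its polyvinylpyrrolidone vehicle was given by daily oral gavage for 2 weeks. The tumors of the ethical endpoint (EOS), at no fixed day, came from the same kinds of treatment with 2 mice each, kept past day 14 and so past the end of dosing. Intratibial tumors carry a mouse number, whereas nothing says whether the SC tumors came from separate mice, so p-values for them measure only the spread between these samples, which may be technical. Between 63729005 and 83782258 counts per tumor fell on genes, and levels are CPM, the counts scaled to the effective library size by TMM, done separately for SC and intratibial tumors. In bulk tumors fewer T cells and less RNA per T cell cannot be told apart.

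A T cell recognizes antigen through the T cell receptor, whose own chains barely reach into the cytoplasm. The signal is passed on by the CD3 chains, which carry motifs that Lck phosphorylates once the coreceptor CD4 brings it to the receptor, and Zap70 then docks on these motifs and phosphorylates the adaptors downstream. CD28 and ICOS give the second, costimulatory signal when they meet ligands on antigen-presenting cells, and CD40 ligand is shown by activated CD4 T cells to CD40 on B cells and dendritic cells.

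Cd3g, Cd3d and Cd3e sit side by side on chromosome 9, and their promoters are shown because these neighbors varied alike over the intratibial tumors (Pearson r with the mean of the CD3 chains, of which they are part, 0.967, 0.924 and 0.970 over 20 tumors). On GRCm38 the genes span 44969572 to 44980431 (Cd3g, minus strand), 44981786 to 44987339 (Cd3d, plus strand) and 44998740 to 45009627 (Cd3e, minus strand), and Cd3g and Cd3d start 1355 bases apart and point away from each other. The sequences run from 250 bases before to 50 bases after the start of the gene in RefSeq, which for Cd3e lies inside the GENCODE span just given, are from RefSeq (GRCm38.p6), and cover chr9:44980382-44980681 (Cd3g), chr9:44981536-44981835 (Cd3d) and chr9:45009562-45009861 (Cd3e), each read along the strand of its gene. Capitals mark matches, on either strand, to motifs of factors that T cells use and to the TATA box. The letters searched for ETS factors were AGGAAG and those for RUNX factors were TGTGGT. For E proteins they were CAGGTG, and for the TATA box they were TATAAA. No match overlaps another here.
Cd3g: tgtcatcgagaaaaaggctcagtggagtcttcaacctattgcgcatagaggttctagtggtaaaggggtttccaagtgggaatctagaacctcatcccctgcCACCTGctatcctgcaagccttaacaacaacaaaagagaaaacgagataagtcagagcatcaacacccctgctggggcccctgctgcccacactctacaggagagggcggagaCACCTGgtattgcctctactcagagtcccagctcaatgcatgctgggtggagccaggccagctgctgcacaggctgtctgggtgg
Cd3d: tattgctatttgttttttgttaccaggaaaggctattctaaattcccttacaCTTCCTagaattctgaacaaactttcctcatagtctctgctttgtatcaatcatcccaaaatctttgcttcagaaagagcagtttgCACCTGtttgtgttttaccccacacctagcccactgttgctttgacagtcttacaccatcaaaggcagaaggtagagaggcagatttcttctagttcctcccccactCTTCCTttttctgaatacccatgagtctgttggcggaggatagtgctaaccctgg
Cd3e: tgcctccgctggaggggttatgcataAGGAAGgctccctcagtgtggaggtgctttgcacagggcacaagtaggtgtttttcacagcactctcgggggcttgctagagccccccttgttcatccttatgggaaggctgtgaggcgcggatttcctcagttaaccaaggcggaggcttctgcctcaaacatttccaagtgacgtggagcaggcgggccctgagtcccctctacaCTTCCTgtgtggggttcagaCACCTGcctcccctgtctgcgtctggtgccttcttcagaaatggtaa
The E protein letters lay at printed bases 103 and 216 of Cd3g, 139 of Cd3d and 254 of Cd3e, and the ETS letters at 53 and 246 of Cd3d and at 27 and 234 of Cd3e. Of 32851 mouse promoters of the same length, 35.4% hold the ETS letters, 20.2% the E protein letters, 16.8% the RUNX letters and 13.6% the TATA letters. The RUNX and TATA letters were not in these windows, and a match is a description of letters, not a binding site. RefSeq promoters were matched for 6 of the 10 genes (not for Cd4, Cd28, Icos and Cd40lg).

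Replicate tumors resembled each other closely (Pearson r of log2 CPM over genes 0.946 to 0.976 within groups), except mouse 20 of the D14 IL-27+cabo group, at 0.908 with both others of its group. Markers of skeletal muscle also set tumors apart. Their summed level over 16 genes was 9.18 to 150.5 CPM in D14 controls, 32.8 to 1892 in D14 IL-27 tumors, 1154 to 1759 in D14 cabo tumors and 1535 to 4623 in D14 IL-27+cabo tumors. Epithelial markers of the tumor line (5 keratin and adhesion genes) were detected in every tumor, between 4.26 and 308.2 CPM summed.

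Among intratibial tumors, each of the 10 genes had its highest group mean in the D14 controls. Per kilobase of gene, Lck (5.21 RPKM) and Cd4 (5.06 RPKM) had the highest mean levels in the 3 D14 controls, followed by Cd3g (3.16), Zap70 (3.14), Cd3e (2.56), Cd3d (1.76), Icos (1.69), Cd247 (1.34), Cd40lg (1.07) and Cd28 (0.659). Summed over the 4 CD3 chains, the level was 31.1 ± 1.70 CPM in D14 controls, 12.96 ± 14.2 in D14 IL-27 tumors, 7.99 ± 1.08 in D14 cabo tumors and 5.49 ± 1.61 in D14 IL-27+cabo tumors (SD, n = 3 each). At EOS it was 4.84 ± 0.12 CPM in controls, 4.17 ± 0.03 in IL-27 tumors, 0.991 ± 0.462 in IL-27+cabo tumors and 0.845 ± 0.467 in cabo tumors (SD, n = 2 each). In this order the D14 IL-27 tumors overlapped with their neighbors, D14 IL-27+cabo tumors with EOS controls, and the EOS cabo with the EOS IL-27+cabo tumors. The SC tumors, scaled apart, had 2.82 ± 0.36 CPM under the control plasmid and 10.3 ± 0.35 under IL-27 (SD, n = 2 each).

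**Figure D1:**
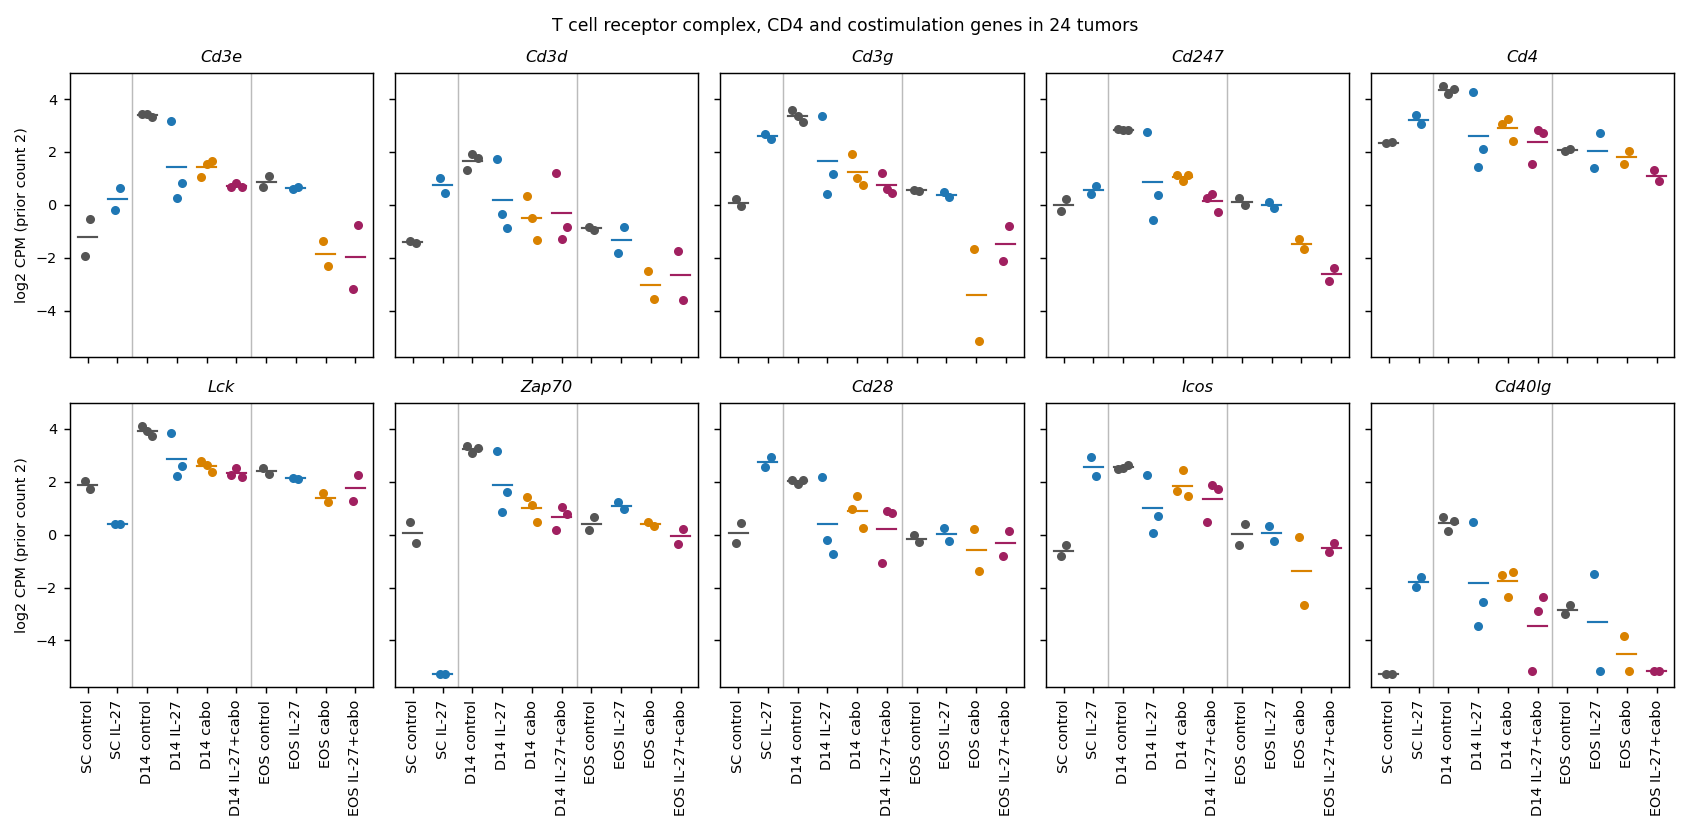
Level of each of the 10 genes in every tumor, as log2 CPM with a prior count of 2 (y axis), by group (x axis); points are tumors, horizontal lines are group means, gray lines separate SC, D14 and EOS tumors, and a gene without counts sits at the bottom of the scale. The 3 D14 controls are at the top of the intratibial tumors for the CD3 chains, together with a single D14 IL-27 tumor (mouse 4).

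Most of the complex was lower under cabo alone on day 14. All 10 genes had a lower mean than in controls, 7 of them passed an adjusted p of 0.05 in edgeR's quasi-likelihood test (Cd3e, Cd3g, Cd247, Cd4, Lck, Zap70 and Cd40lg), and 1.89% of all 18627 genes tested did so in either direction. Each of the 10 was lower in every cabo tumor than in every control, which held for 11.9% of all genes. The median log2 fold change of the 10 was -1.90, beside -0.01 for all genes.

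Cd3e, a chain that pairs with CD3 delta and with CD3 gamma, was at 10.7, 10.8 and 9.85 CPM in the D14 controls (mice 3, 5 and 7) and at 2.07, 2.89 and 3.15 CPM in the cabo tumors (mice 21, 25 and 27). The groups were far apart, and Cd3e was 3.93-fold lower (log2 fold change -1.97 ± 0.19 SE, edgeR adjusted p = 0.00399). Cd247, which encodes the CD3 zeta chain with several signaling motifs, went from 7.27, 7.04 and 7.08 CPM to 2.14, 1.84 and 2.14 CPM. Both groups were tight, and its adjusted p in edgeR was the smallest of the 10 (log2 fold change -1.82 ± 0.17 SE, adjusted p = 0.00331). Cd3g had 11.8, 10.3 and 8.84 CPM in controls and 3.80, 1.99 and 1.66 CPM under cabo (log2 fold change -2.07). Cd3d was lower by a like amount (2.47, 3.74 and 3.37 CPM against 1.22, 0.683 and 0.364 CPM, log2 fold change -2.10 ± 0.44 SE), but its adjusted p was 0.0604 in edgeR.

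Cd4, the coreceptor of helper and regulatory T cells that some myeloid cells also carry, was at 22.4, 18.3 and 20.5 CPM in controls and at 8.23, 9.47 and 5.33 CPM under cabo (log2 fold change -1.43). The kinase Lck, which phosphorylates the CD3 motifs, had 17.3, 15.2 and 13.2 CPM in controls and 6.81, 6.22 and 5.12 CPM under cabo (log2 fold change -1.35 ± 0.16 SE, edgeR adjusted p = 0.0107). For both genes the lowest control stood well above the highest cabo tumor. Zap70, the kinase that docks on the phosphorylated motifs, had 10.1, 8.41 and 9.71 CPM in controls and 2.69, 2.13 and 1.37 CPM under cabo. It was 4.62-fold lower (log2 fold change -2.21 ± 0.26 SE, edgeR adjusted p = 0.00874).

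The costimulatory receptors Icos and Cd28 had the smallest log2 fold changes of the 10. Icos had 5.57, 5.64 and 6.22 CPM in controls and 3.13, 5.40 and 2.73 CPM under cabo, so that mouse 25 nearly reached the controls (log2 fold change -0.65 ± 0.27 SE, edgeR adjusted p = 0.246). Cd28 was at 4.19, 3.76 and 4.15 CPM in controls and at 1.92, 2.69 and 1.17 CPM under cabo (log2 fold change -1.09, adjusted p = 0.128 in edgeR). Neither passed the test, although their groups did not overlap. Cd40lg, the ligand that activated CD4 T cells show to B cells, fell from 1.57, 1.06 and 1.39 CPM to 0.316, 0.167 and 0.350 CPM (log2 fold change -2.29).

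The number of these genes that passed ranged from 3 to 7 when single tumors were left out, with 3 without cabo mouse 25, 4 without cabo mouse 27 and 4 without control mouse 7. None passed when all 20 intratibial tumors shared a fit or when the muscle score was a covariate, although the median log2 fold change was still -1.88 and -1.57 and all 10 were below 0. Since the muscle level of every cabo tumor was above that of every control, cabo and muscle cannot be told apart.

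**Figure D2:**
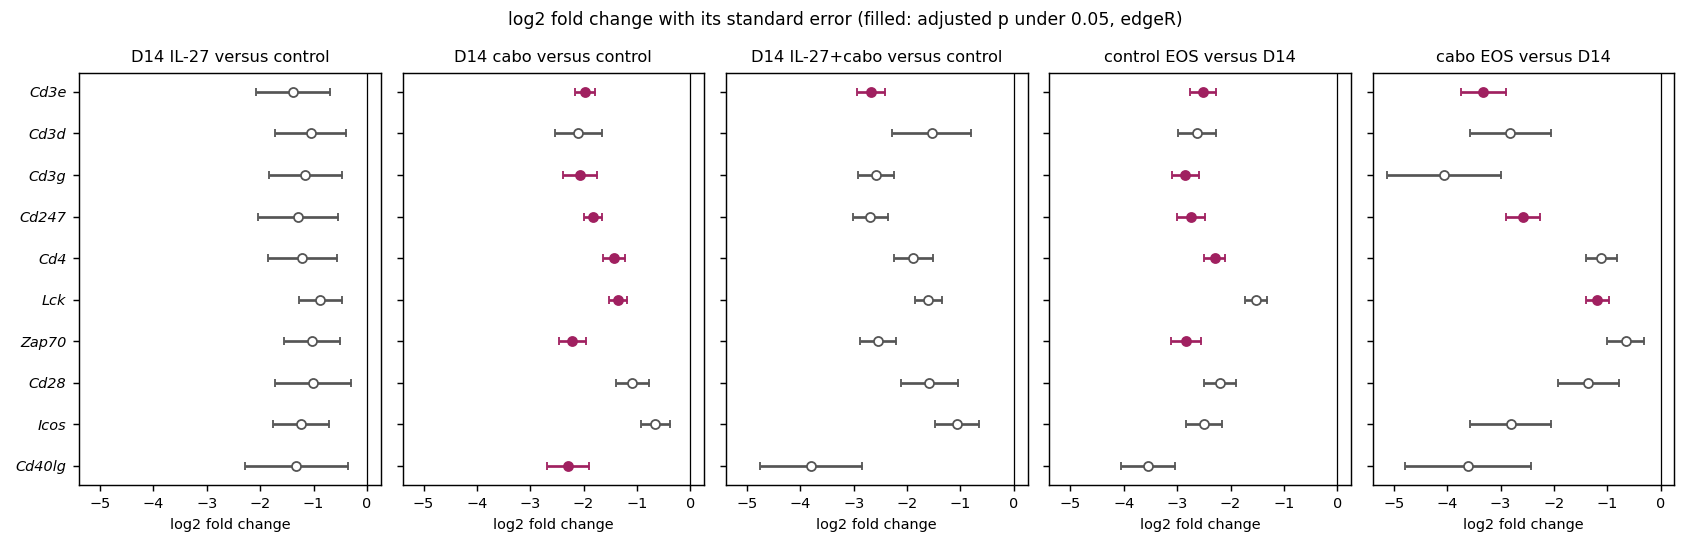
Log2 fold change of each gene (x axis) with its standard error (horizontal bars) in 5 intratibial comparisons, from edgeR; filled points have an adjusted p under 0.05. Fold changes of the 10 genes are below 0 in every panel shown, with 7 filled for D14 cabo, 1 for D14 IL-27+cabo, 5 for control EOS versus D14 and 3 for cabo EOS versus D14.

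IL-27 alone gave a split group on day 14. Mouse 4 was near the controls, with 9.01 CPM of Cd3e, 10.2 CPM of Cd3g, 19.2 CPM of Cd4 and 4.54 CPM of Cd28, while mice 6 and 8 were several-fold lower, with 1.16 and 1.73 CPM of Cd3e, 1.28 and 2.24 CPM of Cd3g, 2.63 and 4.33 CPM of Cd4, and 0.836 and 0.575 CPM of Cd28. Lck (14.2, 4.58 and 6.01 CPM for mice 4, 6 and 8) and Zap70 (8.90, 1.80 and 3.00 CPM) were split the same way. Cd3d had 3.28, 0.758 and 0.518 CPM, Cd247 6.75, 0.650 and 1.27 CPM, and Cd40lg 1.37, 0.0619 and 0.144 CPM. So the IL-27 group spread across nearly the whole range of the day 14 tumors.

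No gene of the 10 passed an adjusted p of 0.05 in edgeR, and 0% of all 18519 genes did. Icos (4.69, 1.01 and 1.61 CPM against 5.57 to 6.22 CPM in controls) was the single one with an unadjusted p under 0.05 (log2 fold change -1.24 ± 0.52 SE, adjusted p = 1 in edgeR), beside 2.76% of all genes. DESeq2 called none of the 10 and 0.0108% of all genes. Cd3e, Cd247 and Icos were lower in every IL-27 tumor than in every control, a pattern of 4.73% of all genes. The median log2 fold change of the 10 was -1.18, and without mouse 4 it was -2.51 with all 10 at an unadjusted p under 0.05 (6.95% of all genes in that fit), none under the adjusted threshold and a lowest adjusted p of 0.0795 in edgeR. The summed B cell markers (38.9 CPM in mouse 4, 5.06 and 9.59 CPM in mice 6 and 8) were split too, but nearly all of the sum was 1 gene, the immunoglobulin heavy chain Ighm (36.9 CPM in mouse 4).

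Under IL-27+cabo the complex was low in all 3 tumors of day 14. Cd3e was at 1.57, 1.73 and 1.56 CPM in mice 20, 22 and 24, tightly grouped and 6.38-fold below the D14 controls (log2 fold change -2.67 ± 0.26 SE, edgeR adjusted p = 0.0406). It was the only 1 of the 10 to pass, where 0.0640% of all 18750 genes passed. All 10 were lower in every IL-27+cabo tumor than in every control, as were 7.58% of all genes. Their median log2 fold change was -2.21, beside 0.05 for all genes.

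Cd247 (1.16, 1.31 and 0.803 CPM, log2 fold change -2.69), Cd3g (2.27, 1.49 and 1.34 CPM, -2.58) and Zap70 (1.09, 2.03 and 1.69 CPM, -2.54) were as far below the controls, with adjusted p values of 0.0623, 0.0763 and 0.0763 in edgeR. Cd4 (2.92, 7.08 and 6.53 CPM, log2 fold change -1.88) and Lck (4.68, 5.71 and 4.49 CPM, -1.61) were closer to them. Mouse 20 stood apart from the others of its group in both directions: its Cd3d, at 2.30 CPM against 0.379 and 0.535, was near the controls, while its Cd28 (0.449 CPM against 1.83 and 1.75) and Icos (1.35 CPM against 3.66 and 3.31) were the lowest of the group. Log2 fold changes were -1.59 for Cd28, -1.07 for Icos and -3.80 for Cd40lg (0, 0.108 and 0.169 CPM), each with an unadjusted p under 0.05 in edgeR. Without mouse 20, 8 of the 10 passed the adjusted threshold (all but Cd28 and Icos), beside 0.899% of all genes in that fit, and with any other tumor of the comparison left out instead, none did. Mouse 20 also had the highest sum of its group for the epithelial markers (308.2 CPM against 76.8 and 86.3). The same held for the constant regions of the T cell receptor (17.1 CPM against 8.00 and 7.11). The macrophage markers of mouse 20 were split: it had the highest C1qa (503.3 CPM) and C1qb (532.2 CPM) of its group and the lowest level of the other 5 of 7. The part of these cells in its values was not tested.

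Against each single treatment, no difference passed the test. Compared with cabo alone, none of the 10 passed in edgeR (0% of 18662 genes did) or in DESeq2 (0.0268% of genes), and Cd247 was the 1 with an unadjusted p under 0.05 (1.92% of genes; log2 fold change -0.87 ± 0.33 SE, adjusted p = 0.788 in edgeR). Compared with IL-27 alone, none passed in edgeR (0% of 18570 genes) or in DESeq2 (0.899% of genes), and Zap70 was the 1 with an unadjusted p under 0.05 (4.85% of genes; log2 fold change -1.53 ± 0.64 SE, adjusted p = 0.916 in edgeR). The median of the 10 in that comparison was -1.03 and became 0.15 without mouse 4 and 0.04 with the muscle score as a covariate, where 5 of the 10 were below 0. These comparisons share tumors with those above.

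The interaction asks whether IL-27 and cabo together differ from the sum of their single log2 changes. None of the 10 passed in edgeR (0% of 19899 genes), none had an unadjusted p under 0.05 (1.88% of genes), and DESeq2 called none (0.0201% of genes). Cd3d had the smallest p (1.59 ± 1.14 SE on the log2 scale, adjusted p = 0.952 in edgeR). Their median was 0.64, and without mouse 4 it was 1.99, with 9 of the 10 at an unadjusted p under 0.05 (2.65% of all genes in that fit) and an adjusted p of 1 in edgeR.

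In control mice 5 of the 10 genes fell between day 14 and the endpoint. Cd3e went from 9.85 to 10.8 CPM on day 14 to 1.58 and 2.08 CPM in mice 13 and 9 at EOS (log2 fold change -2.51 ± 0.24 SE). Cd3g (8.84 to 11.8 CPM, then 1.46 and 1.40 CPM) fell 7.19-fold (log2 fold change -2.85 ± 0.25 SE), and Cd247 (7.04 to 7.27 CPM, then 1.17 and 0.959 CPM) fell 6.67-fold. Cd4 (18.3 to 22.4 CPM, then 4.02 and 4.25 CPM, log2 fold change -2.30 ± 0.19 SE) and Zap70 (8.41 to 10.1 CPM, then 1.09 and 1.55 CPM, log2 fold change -2.83) fell as well, all 5 with an adjusted p of 0.0256 in edgeR. The 5 of 10 genes that passed stand beside 0.104% of all 19292 genes.

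The other 5 (Cd3d, Lck, Cd28, Icos and Cd40lg) had adjusted p values from 0.0643 to 0.0705, with log2 fold changes from -3.55 ± 0.50 SE for Cd40lg, the gene with the largest p in edgeR, to -1.52 for Lck. In EOS control mice 13 and 9, Cd3d was at 0.537 and 0.487 CPM, Lck at 5.66 and 4.92 CPM, Cd28 at 0.950 and 0.802 CPM, Icos at 0.743 and 1.30 CPM and Cd40lg at 0.0963 and 0.129 CPM. Every one of the 10 was lower in both EOS controls than in all D14 controls, as were 17.6% of all genes. DESeq2 called all 10, and 4.52% of all genes. Markers of other immune cells were lower too: the 8 NK cell markers summed to 25.9 to 35.8 CPM on day 14 and to 12.6 and 16.5 CPM at EOS (8 of 8 with a log2 fold change below 0, 5 at an unadjusted p under 0.05, none called), and 6 of 7 macrophage markers were below 0 (3 at an unadjusted p under 0.05, none called). Their part in the result was not tested. With any single one of the 5 tumors left out, with all 20 intratibial tumors in a fit, or with no filter on low counts, edgeR called none of them.

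In mice given cabo, 3 of the 10 genes fell further between day 14 and EOS, when dosing had ended. The CD3 chains were close to 0 at EOS: Cd3e was at 0.355 and 0.172 CPM (mice 19 and 23), Cd3d at 0.150 and 0.0572 CPM, Cd3g at 0.287 and 0 CPM, and Cd247 at 0.383 and 0.286 CPM. Cd3e (log2 fold change -3.32 ± 0.43 SE, adjusted p = 0.0191), Cd247 (-2.58 ± 0.32 SE, adjusted p = 0.0168) and Lck (6.81, 6.22 and 5.12 CPM, then 2.91 and 2.32 CPM, -1.19 ± 0.22 SE, adjusted p = 0.0494) fell with time in edgeR, 3 of 10 beside 2.09% of all 19144 genes. Cd3d (-2.82), Cd3g (-4.06), Cd4 (-1.12), Icos (-2.81) and Cd40lg (-3.61) had an unadjusted p under 0.05 only. At EOS Icos was at 0.915 and 0.129 CPM, Cd28 at 1.12 and 0.358 CPM and Cd40lg at 0.0410 and 0 CPM, with mouse 23 the lower for each. Zap70 was at 2.69, 2.13 and 1.37 CPM on day 14 and at 1.37 and 1.22 CPM at EOS (log2 fold change -0.65, adjusted p = 0.387 in edgeR), and Cd4 was at 2.90 and 4.06 CPM at EOS. The log2 ratio of Cd4 to Cd3e CPM was 0.756 to 1.98 in D14 cabo tumors and 2.93 and 4.36 in these EOS tumors, and in controls it was 0.753 to 1.06 on day 14 and 1.02 and 1.33 at EOS. Without cabo mouse 21, cabo mouse 27 or EOS cabo mouse 23, none of the 10 passed. Markers of other cells moved in the same comparison: 6 of 7 macrophage markers were below 0 (1 called, Mrc1), as were 5 of 5 marrow myeloid markers tested, both CD8 chains and 16 of 16 muscle markers (none called), with muscle at 1154 to 1759 CPM summed on day 14 and 118.8 and 916.7 CPM at EOS. Each B cell marker also had a lower mean at EOS, as had each NK cell marker but Ncr1. The sums of these overlapped between day 14 and EOS (B cells 9.87 to 14.2, then 10.2 and 3.39 CPM, NK cells 10.2 to 41.5, then 22.7 and 6.80 CPM). Their part in the result was not tested.

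IL-27+cabo tumors at EOS (mice 16 and 28) had 0.0814 and 0.565 CPM of Cd3e, 0.271 and 0.0538 CPM of Cd3d, 0.204 and 0.538 CPM of Cd3g, 0.109 and 0.161 CPM of Cd247 and no count of Cd40lg, which did not pass the filter on low counts. The other genes were at higher levels, with 2.46 and 1.82 CPM of Cd4, 2.36 and 4.68 CPM of Lck, 0.760 and 1.14 CPM of Zap70, 0.543 and 1.08 CPM of Cd28, and 0.611 and 0.767 CPM of Icos. For Cd40lg no change from day 14 can be given. D14 mouse 20 had no count of it either, and mice 22 and 24 were at 0.108 and 0.169 CPM. Of the 9 genes tested against day 14, none passed in edgeR (0% of 19365 genes). Cd3e (-2.36), Cd3g (-2.24), Cd247 (-3.03), Cd4 (-1.38) and Icos (-2.02) had an unadjusted p under 0.05, 5 of 9 beside 3.83% of all genes, and DESeq2 called 1 of the 9 (1.70% of genes). That number at an unadjusted p under 0.05 was 1 without EOS mouse 16, 2 without D14 mouse 24, and 3 without D14 mouse 22 or EOS mouse 28.

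IL-27 tumors at EOS (mice 10 and 12) had 1.47 and 1.58 CPM of Cd3e and 2.59 and 6.54 CPM of Cd4. Cd3d was at 0.255 and 0.528 CPM, Cd3g at 1.37 and 1.18 CPM, Cd247 at 1.05 and 0.899 CPM, Lck at 4.38 and 4.28 CPM, Zap70 at 2.32 and 1.91 CPM, Cd28 at 1.18 and 0.813 CPM, Icos at 1.23 and 0.813 CPM, and Cd40lg at 0.326 and 0 CPM. The tumors differed most in Cd40lg, Cd4 and Cd3d. Against the D14 IL-27 group, none of the 10 passed in edgeR (0% of 19078 genes), none had an unadjusted p under 0.05 (5.05% of genes) and DESeq2 called none (0.571% of genes). Cd3d had the smallest p (log2 fold change -1.94 ± 0.91 SE, adjusted p = 0.818 in edgeR). The median of the 10 was -1.31 and became -0.07 without mouse 4.

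Among EOS tumors, 9 of the 10 genes passed the filter. IL-27 against control gave no call in edgeR (0% of 20026 genes), no unadjusted p under 0.05 (3.25% of genes) and no call in DESeq2 (0.115% of genes). Zap70 had the smallest p there (2.32 and 1.91 CPM against 1.09 and 1.55 CPM, log2 fold change 0.68 ± 0.37 SE, adjusted p = 1 in edgeR). Cabo against control gave no call in edgeR (0% of genes) or DESeq2 (1.35% of genes), and 5 of the 9 had an unadjusted p under 0.05 in edgeR (8.90% of genes): Cd3e (-2.79), Cd3d (-2.29), Cd3g (-3.30), Cd247 (-1.67) and Lck (-1.02). Those 5 are the CD3 chains and the kinase that phosphorylates them, and each was lower in both cabo tumors than in both controls, as were 21.3% of all genes. Without cabo mouse 23 or control mouse 13, 2 genes had an unadjusted p under 0.05, and without cabo mouse 19 the median log2 fold change went from -1.02 to -2.43, with Cd40lg then among 10 genes tested. Zap70 (-0.03 ± 0.37 SE) and Cd4 (-0.25 ± 0.45 SE) had log2 fold changes near 0.

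IL-27+cabo against control at EOS gave no call in edgeR (0% of genes) and 1 in DESeq2 (4.68% of genes). Cd247 (-2.98 ± 0.49 SE, adjusted p = 0.152 in edgeR) and Cd3e (-2.52 ± 0.79 SE, adjusted p = 0.248) were the 2 of 9 with an unadjusted p under 0.05 (14.2% of genes). Cd40lg, without counts under IL-27+cabo, was at least 2.78-fold lower than in EOS controls, with 3 counts in each library as the floor. Whether the difference between cabo and control tumors changed from day 14 to EOS was tested with all intratibial tumors, a comparison added after seeing the data. None of the 10 passed in edgeR (0.0788% of 21563 genes did) or in DESeq2 (0.413% of genes). Zap70 was the 1 of 10 with an unadjusted p under 0.05 (4.11% of genes), and its log2 difference between cabo and control tumors was higher at EOS than on day 14 by 2.16 ± 0.73 SE (adjusted p = 0.938 in edgeR).

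In subcutaneous tumors Cd3g, Cd28 and Icos rose and Zap70 fell under IL-27. Icos, which is induced on activated T cells, had 0.539 and 0.735 CPM in SC controls and 7.61 and 4.59 CPM under IL-27 (log2 fold change 3.26 ± 0.57 SE, edgeR adjusted p = 0.00858). Cd28, its relative on resting T cells, had 0.778 and 1.33 CPM, then 5.92 and 7.69 CPM (2.69 ± 0.54 SE, adjusted p = 0.0149 in edgeR). Cd3g went from 1.14 and 0.939 CPM to 6.42 and 5.62 CPM (2.53 ± 0.50 SE, adjusted p = 0.0137 in edgeR). Zap70 was at 1.35 and 0.775 CPM in controls and had no count in either IL-27 tumor, which makes it at least 27.9-fold lower with 3 counts in each library as the floor (adjusted p = 0.00935 in edgeR). These 4 of 10 passed, beside 20% of all 19360 genes. Of them, Cd3g and Cd28 no longer passed after the correction for GC content and length described below.

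Cd3d (0.364 and 0.340 CPM, then 2.00 and 1.35 CPM, log2 fold change 2.25, adjusted p = 0.0577 in edgeR) and Cd40lg (no count in controls, 0.228 and 0.308 CPM under IL-27, at least 6.83-fold higher, adjusted p = 0.0551) came close. Lck moved the other way, from 4.08 and 3.25 CPM to 1.28 and 1.31 CPM (log2 fold change -1.50, adjusted p = 0.0854 in edgeR). Lck and Zap70 were lower in each IL-27 tumor than in each control, as were 35% of all genes, and of these kinases only Zap70 passed. The remaining genes had 0.238 and 0.666 CPM, then 0.836 and 1.51 CPM (Cd3e), 0.815 and 1.13 CPM, then 1.30 and 1.59 CPM (Cd247), and 4.97 and 5.13 CPM, then 10.5 and 8.18 CPM (Cd4). In all, 8 of the 10 were higher in both IL-27 tumors than in both controls, as were 31.9% of all genes.

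The fold changes of all genes in these tumors followed the GC content of the transcript. The median log2 fold change was 1.01 for transcripts under 40% GC, the class of Cd3g, 0.76 from 40% to 45% (Cd3e, Cd247, Cd28, Icos and Cd40lg), 0.31 from 45% to 50%, -0.59 from 50% to 55% (Cd3d, Cd4 and Lck) and -2.33 from 55% (Zap70), where 55.2% of genes were called lower. After a correction for GC content and length, Icos (2.19, adjusted p = 0.0397 in edgeR) and Zap70 (adjusted p = 0.0382) still passed, and Cd3g (1.12, adjusted p = 0.187) and Cd28 (1.49, adjusted p = 0.0879) did not. Without SC control replicate 1, none of the 10 passed. Markers of muscle (5.47 and 15.7 CPM summed in controls, 388.6 and 1193 CPM under IL-27, 15 of 16 genes called higher) and of marrow myeloid cells (0.878 and 2.01 CPM, then 37.5 and 39.3 CPM, 5 of 6 tested called higher) moved with the treatment. The sum of the epithelial markers of the tumor line went the other way (26.8 and 75.4 CPM in controls, 4.26 and 12.2 CPM under IL-27), with 2 of 5 called lower, Krt8 and Krt19. Most of the sum in controls was Krt8 (mean 44.06 CPM, then 3.141 CPM). Cdh1 had a higher mean under IL-27 (2.691 and 4.525 CPM), and Epcam was nearly level (0.1667 and 0.1595 CPM). Of 8 NK cell markers 3 were called higher (Klrk1, Gzma and Klrd1) and 1 lower (Prf1), and of 7 macrophage markers 3 were called lower (C1qa, C1qb and Cd68), while Mrc1 (mean 239.9 CPM in controls, 691.4 CPM under IL-27), Adgre1 (116.2 and 222.1 CPM) and Cd163 (17.9 and 48.3 CPM) had higher means and were not called. The part of these cells in the result was not tested.

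**Figure D3:**
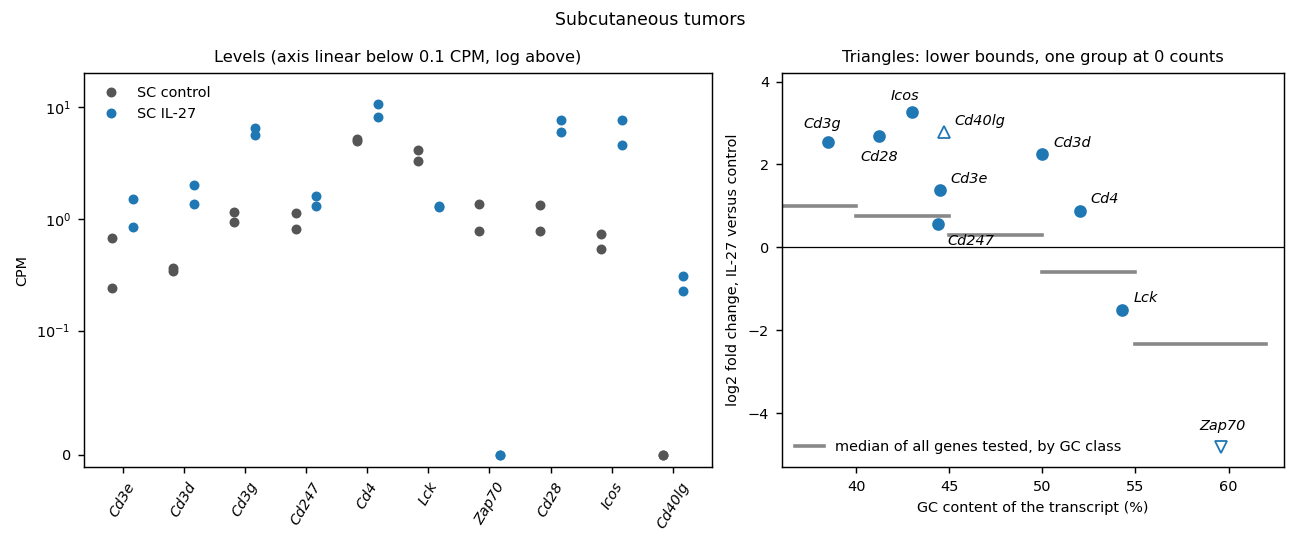
Left, CPM of each gene in the 4 SC tumors (points; y axis linear below 0.1 CPM and logarithmic above); right, log2 fold change of each gene (y axis) against the GC content of its transcript in percent (x axis), with the median of all genes tested in each GC class as gray lines. Triangles are lower bounds for genes without counts in a group: Zap70, at least 27.9-fold lower, and Cd40lg, at least 6.83-fold higher. The gray lines run from 1.01 at low GC to -2.33 at high GC.

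The genes whose levels were most like the mean of the 4 CD3 chains over the 20 intratibial tumors, among 21563 genes, were Trac (Pearson r = 0.978), which encodes the constant region of the T cell receptor alpha chain, Cd2 (0.966), an adhesion receptor of T and NK cells, Trbc1 (0.959), a beta chain constant region, Gimap3 (0.956), a GTPase of lymphocytes, and Cd5 (0.951), a brake on receptor signaling. Of the other genes of the set, Lck (0.940) was closest and Cd28 (0.779) least close, with Icos at 0.862, Cd40lg at 0.846, Zap70 at 0.843 and Cd4 at 0.825. The tumors share groups and libraries, so these values are a description.

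The constant regions of the receptor itself moved with CD3. Their sum over 4 genes was 31.8 to 33.9 CPM in D14 controls and 10.2 to 11.4 CPM in D14 cabo tumors, where 3 of the 4 were called lower: Trac (log2 fold change -1.63), Trbc1 (-2.12) and Trbc2 (-1.80). Trdc, the delta chain of gamma delta T cells, had a log2 fold change of 0.19 ± 0.42 SE (adjusted p = 0.844 in edgeR). Between D14 and EOS controls, Trbc1 (-2.61) and Trac (-2.67) fell, 2 of the 4. In SC tumors none of the 4 passed, with Trac at 1.50 and adjusted p = 0.0763 in edgeR.

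Among 28 other genes of proximal receptor signaling, 5 were called lower and none higher in D14 cabo tumors, among them Skap1 (log2 fold change -1.55) and Cd5 (-1.28), an adaptor and an inhibitory receptor of T cells, Cd2 (-1.46), and the kinase Fyn (-0.44). Their median was -0.24, well short of the -1.90 of the 10 genes. Between D14 and EOS controls 1 of the 28 fell (Cd2, -2.75), with a median of -1.33. Of 11 ligands and relatives of CD28, 2 fell under cabo on day 14, Cd27 (-1.79), a costimulatory receptor, and Btla (-2.04), an inhibitory one. Between D14 and EOS controls the inhibitory receptors Pdcd1 (-2.52) and Btla (-3.41) fell, 2 of 11.

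Of 15 transcription factors of T cells, 2 were called lower in D14 cabo tumors, Tox (log2 fold change -2.34) and Bcl11b (-1.22), and 1 was called higher. Tox (-3.24) was the 1 of 15 that fell between D14 and EOS controls. In SC tumors under IL-27, Ctla4 (3.94), Btla (3.60) and Cd80 (2.00) rose among the 11, Ptprc (2.02), Cd2 (2.23) and Ptpn22 (1.27) were among 4 of 27 signaling genes that rose, and Csk (-3.37), the kinase that restrains Lck, fell. Ikzf1 (1.81) rose and Zbtb7b (-2.67), which directs the CD4 lineage, fell, both of the 15. In these tumors 682 of all 19360 genes were called higher and 3198 lower, and the calls of these lists were not corrected for the GC content described above.

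The CD8 chains mark cytotoxic T cells, and neither was called in cabo-treated tumors of day 14. Cd8a and Cd8b1 summed to 0.269 to 0.621 CPM in D14 controls, 1.73 to 4.29 CPM in D14 cabo tumors and 1.16 to 2.74 CPM in D14 IL-27+cabo tumors. Under cabo the log2 fold change was 2.62 ± 0.63 SE for Cd8a (adjusted p = 0.0859 in edgeR) and 2.02 ± 0.55 SE for Cd8b1 (adjusted p = 0.122). Under IL-27+cabo it was 1.95 ± 0.81 SE for Cd8a (adjusted p = 0.799 in edgeR) and 2.17 ± 0.65 SE for Cd8b1 (adjusted p = 0.495). At EOS the groups overlapped, with 0 and 0.444 CPM summed in controls, 0.1002 and 0.506 CPM in cabo tumors and 0.0543 and 1.40 CPM in IL-27+cabo tumors. In SC tumors Cd8a rose (4.19, adjusted p = 0.0113 in edgeR) from 0.150 and 0.299 CPM to 2.21 and 6.03 CPM.

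Markers of other cells of marrow and lymphoid tissue stood beside the CD3 levels. B cell markers (6 genes) summed to 35.6 to 43.3 CPM in D14 controls and to 9.87 to 14.2 CPM in D14 cabo tumors, with 1 of 6 called lower (Ighm, -2.02). Ighm (mean 36.8 CPM in controls, 9.21 CPM under cabo) made up nearly all of this drop, and Pax5 had a higher mean under cabo (1.06 and 1.55 CPM). The B cell markers summed to 6.55 and 7.26 CPM in EOS controls, where 1 of 6 was called lower than on day 14 (Ighm, -2.62). Each of the 6 had a lower mean in EOS controls than in D14 controls. Marrow myeloid markers (7 genes) summed to 4.03 to 4.92 CPM in D14 controls and 1.97 to 2.84 CPM in D14 cabo tumors, with 0 of 5 tested called. That lower sum came from Ngp (mean 1.68 against 0.246 CPM) and Ltf (1.35 against 0.202 CPM), while 3 of the 5 had log2 fold changes above 0. Endothelial markers (6 genes) summed to 158.6 to 261.8 CPM in D14 controls and 131.9 to 145.6 CPM in D14 cabo tumors, with 2 of 6 called lower (Emcn, -2.70, and Kdr, -1.56). Vwf had a higher mean under cabo (10.11 and 15.88 CPM), and Tek was nearly level (4.577 and 4.45 CPM). At EOS the cabo tumors had 233.3 and 281.7 CPM of the endothelial markers, with 3 of 6 called higher than on day 14 (Emcn, Pecam1 and Kdr). The mean of Vwf was lower then (12.95 CPM). Muscle markers were higher in D14 cabo tumors than in controls at the levels given above, 7 of 16 called. The early lymphoid genes Rag1 and Rag2 were at 0 in all D14 controls. The part of these cells in the levels of the T cell genes was not tested.

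**Figure D4:**
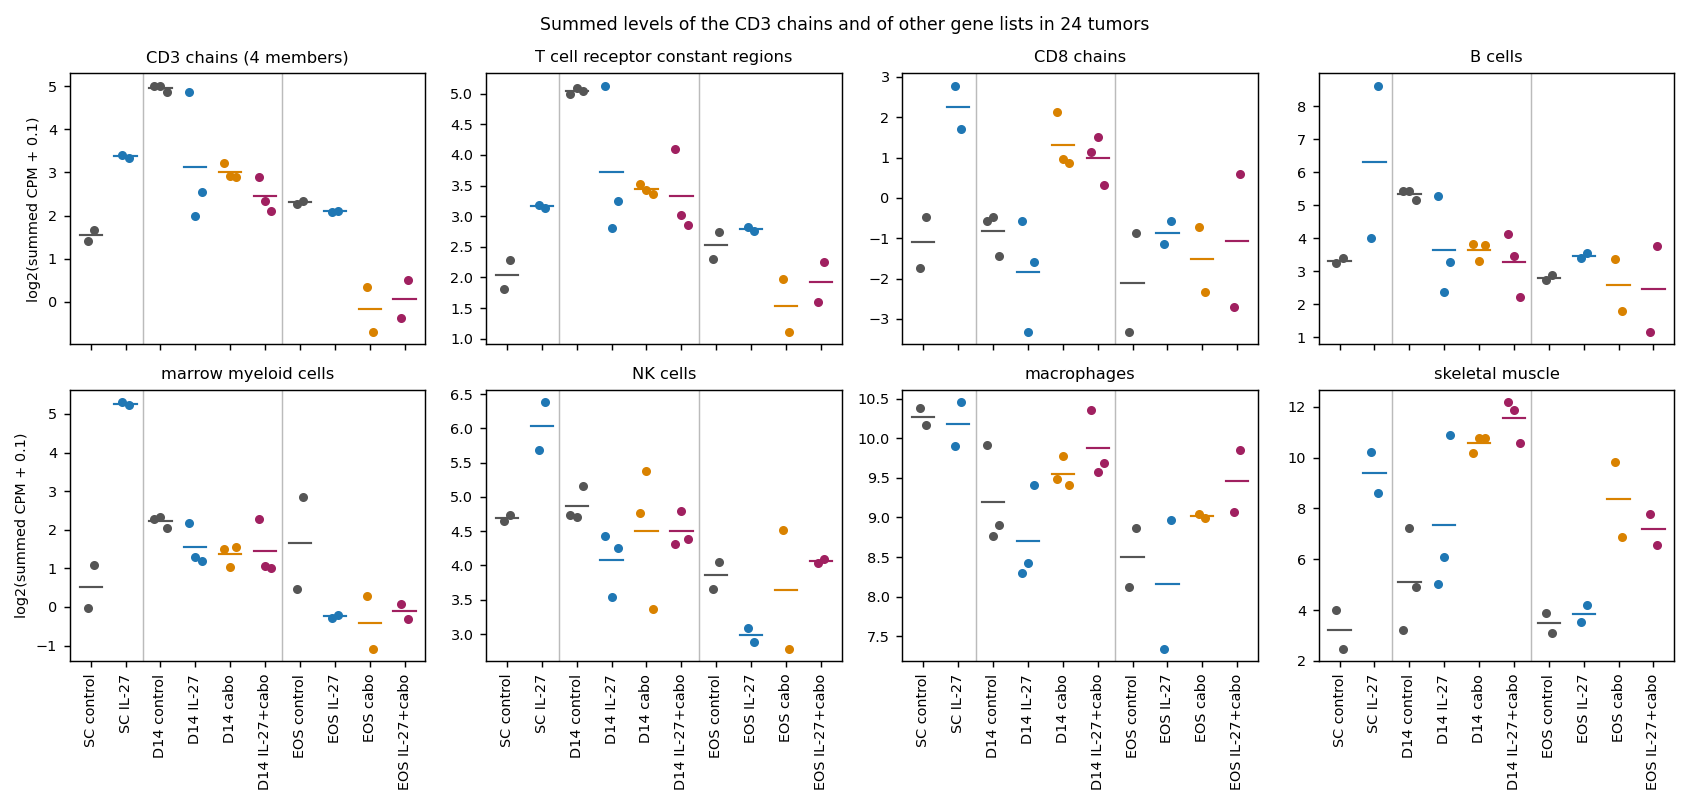
Summed level of the CD3 chains and of 7 marker lists in each tumor, as log2(summed CPM + 0.1) (y axis, with its own range in each panel), by group (x axis); points are tumors, short lines are group means, and gray lines separate SC, D14 and EOS tumors. The receptor constant regions and the B cell sum, most of which is Ighm, show the D14 controls and mouse 4 at the top of the intratibial tumors, and muscle markers show every cabo-treated D14 tumor, and IL-27 mouse 8, above every D14 control.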

How the data were processed

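Per the labels and the paper's methods, stranded poly(A) libraries of total RNA were sequenced from both ends, and HISAT2 and StringTie served for alignment and assembly of the trimmed reads. Deposited were raw counts for each Ensembl gene, which the authors had not normalized. The counting program, its annotation and whether it used strand are not given in the sources used here. Reads of Cd3e, Cd247, Lck, Zap70 and Icos may thus be shared with annotated genes that overlap them, such as Pou2f1 opposite Cd247. Between 30.4% and 35.5% of the values up to 20 in each library were multiples of 4, so counts may exceed the fragments behind them, and dividing by 4 was an alternative. Names come from GENCODE M21, which matched 55141 of 55401 identifiers.

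Counts were analyzed in R 4.3.3 with edgeR 4.0.16 (filterByExpr, TMM, quasi-likelihood F test), over all genes, with two-sided p-values adjusted by the Benjamini-Hochberg method and called under 0.05. Each fit held only its own groups, apart from the interaction (all D14 groups), the EOS comparisons (all EOS groups) and the added comparison of cabo effects (all intratibial tumors). Alternatives were DESeq2 1.42.0, RLE size factors, no filter, counts divided by 4, one fit over all 20 intratibial or all 24 tumors, a muscle score added as covariate, a spline correction for GC content and length with 5 degrees of freedom (SC), the replicate block (SC), and leaving out each tumor. Scripts were tested on simulated data. The floor for genes at 0 was 3 counts in each library, averaged over the group as CPM, which covers counting error only. RPKM used exon union lengths.

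The genes and lists were chosen with earlier results of these data known. All 10 genes are given in every tumor. Per comparison, fold changes are given for genes with an unadjusted p under 0.05, or the 1 with the smallest p where there was none; where all 10 passed, for the 4 smallest and the largest p at least. Lists are given as counts, with at most 4 genes named by smallest p, and the 5 genes most like the CD3 mean are named. Adding a few further fold changes for the 10 genes was decided after seeing their values. A result for 1 gene of the lists is not reported here.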

Additional observations from a re-analysis of the deposited data

Results flagged for a closer look

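For 5 genes, every IL-27 tumor stood above every control in one setting and below in another. The opposite pattern of SC and D14 tumors was met by 3 of the 10 genes (Cd3e, Cd247 and Icos) and by 3.05% of 17706 genes tested in both, and that of SC and EOS tumors by 2 of 9 (Cd3g and Zap70) and by 10.5% of 18411 genes. These differences between SC and intratibial tumors were not tested, since site, time, cells (TC2Ras or TC2Ras-Luc), the prefix of the library labels and scaling differ between them. The SC values below are also not corrected for the GC content that SC fold changes followed. Values are the treated minus control mean log2 CPM. Cd3e was higher by 1.43 in SC tumors and stood at -1.98 on day 14, where mouse 4 was near the controls. Cd247 was at 0.573 in SC tumors and at -1.98 on day 14. Icos was at 3.18 in SC tumors and at -1.54 on day 14. Cd3g was at 2.51 in SC tumors and at -0.162 at EOS. Zap70 went the other way, at -5.35 in SC tumors, where it had no counts under IL-27 and the value depends on the prior count, and at 0.689 at EOS.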

How the results depend on the processing

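Numbers of the 10 genes that passed moved with the processing, while no fold change that was called, or had an unadjusted p under 0.05, reversed. With DESeq2 in place of edgeR the number went from 4 to 7 for SC IL-27, from 7 to 9 for D14 cabo, from 1 to 7 for D14 IL-27+cabo, from 5 to 10 for control EOS versus D14, from 3 to 6 for cabo EOS versus D14, and from 0 to 1 for IL-27+cabo EOS versus D14 and for EOS IL-27+cabo versus control. Without a filter on low counts it was 4 for D14 cabo (7 with it), 0 for D14 IL-27+cabo, 0 for control EOS versus D14 and 1 for cabo EOS versus D14. All 20 intratibial tumors in one fit gave 0 for D14 cabo, for control EOS versus D14 and for cabo EOS versus D14. The muscle covariate gave 0 for D14 cabo and D14 IL-27+cabo, with median log2 fold changes of -1.57 (-1.90 without it) and -1.99 (-2.21), all 10 below 0 in both. For D14 IL-27+cabo versus IL-27 it moved the median from -1.03 to 0.04. The share of all genes called moved too. For control EOS versus D14 it was 0.104% in edgeR and 4.52% in DESeq2. For IL-27+cabo EOS versus D14 it was 0% and 1.70%, and for EOS IL-27+cabo versus control 0% and 4.68%. So a higher number of the 10 called in a setting is not by itself stronger support. The cause of these moves was not tested.

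Leaving out single tumors gave 0 to 4 for SC IL-27 (0 without SC control replicate 1), 3 to 7 for D14 cabo (3 without mouse 25, 4 without 27 or control 7), 0 to 8 for D14 IL-27+cabo (8 without mouse 20, 0 without any other), 0 for control EOS versus D14, 0 to 4 for cabo EOS versus D14 (0 without mice 21, 27 or 23), and 0 for all others. Of the fold changes, 228 kept their direction and side of the threshold when a tumor was left out, 43 lost significance and 8 gained it; under other settings these were 252, 29 and 19.

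SC replicates share only a number: the deviations of same-numbered tumors correlated at r = 0.031. The replicate block gave 4 calls, as without it. The correction for GC content and length gave 2, and with the replicate block as well 1 (Icos, adjusted p = 0.0494, Zap70 0.0744, edgeR). The comparison of cabo effects between EOS and D14 was chosen after seeing the data. Cd40lg had no count in 4 of 8 EOS tumors and 2 of 4 SC tumors, so its level there is known only up to the floor of 3 counts in each library.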
